A study of Rattus norvegicus with 15 samples.

Results

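The genes described here are 39 genes that mark Kupffer cells, other macrophages and leukocytes, read in liver RNA of rats fed isoflavones. One probe set stood for each gene, that with the highest mean over the 15 arrays among those annotated to that gene alone, and 33 of the 39 had one. All 33 passed the filter on dim probe sets and make up 33 of the 10745 genes tested. The levels of Vsig4, Timd4, Marco, Msr1, Spi1 and Slc11a1 were not analysed here. The rats were male Sprague-Dawley animals taken in at 4 weeks of age and given 5 days to adapt. For 14 days each diet group then ate 1 of 3 diets, with 5 arrays per group: the basal diet with 2 g/kg genistein, the basal diet with 2 g/kg daidzein, or the basal diet without isoflavone as control. Casein at 200 g/kg and palm oil at 100 g/kg were common to all 3. Both compounds come from soy and differ by a hydroxyl group, which genistein carries, and the title sets them against each other for lipid metabolism of the liver. The titles call the arrays biological replicates, and their numbers differ from those of the descriptions in 9 of the 15.

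Kupffer cells are the resident macrophages of the liver. They sit in the sinusoids, take up particles, bacteria and dying blood cells through scavenger receptors and Fc receptors, and make the complement protein C1q. Their survival depends on signalling through the receptor Csf1r, and the transcription factor PU.1, the product of Spi1, drives much of the macrophage programme. CD14 binds bacterial lipopolysaccharide handed over by the plasma protein Lbp and passes it to the TLR4 receptor complex. Hepatocytes can also make CD14, and sinusoidal endothelial cells also carry Mrc1 and Fcgr2b, so none of these 3 is restricted to macrophages.

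Levels are in log2 units rebuilt from the authors' standardized scores, on a scale whose zero is arbitrary, so a level says nothing about one gene against another. Probe sets below a mean of -0.30 were treated as dim and left out. Hepatocyte markers such as Alb, Apoa1 and Ttr were bright in every array, and the Kupffer cell lectin Clec4f was well above the dim range in all 15. Between arrays of the same diet the median SD of the 33 genes was 0.229, against 0.198 over all genes tested, and it ran from 0.120 for Itgb2 to 0.818 for Cd3e. With 5 arrays a diet, a difference between diets carried a 95% confidence interval of about 0.30 on either side in the median gene, and the number of arrays limits every value below. No array stood far from the others, as the mean correlation of an array with the others ran from 0.950 to 0.963 over probe sets. In whole liver RNA, fewer cells of a type and less RNA per cell cannot be told apart.

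None of the 33 genes passed the test in any comparison (limma, Benjamini-Hochberg adjusted p under 0.05 over all 18625 probe sets), where the share called over all genes was 0.335% for genistein against control, 0.0279% for daidzein against control and 0.14% for genistein against daidzein. Against control, 29 of the 33 genes had values below 0 with daidzein, with a median log2 difference of -0.14, while 51% of all genes lay below 0 and their median was -0.0037. The 4 genes above 0 were Cd14, Coro1a, Itgam and Cd68. With genistein 18 lay below 0 and 15 above, with a median of -0.053 against -0.0038 over all genes, of which 51% lay below 0. Set directly against each other, 27 of the 33 had higher values with genistein than with daidzein (median 0.14, against 0.0014 over all genes, 50.4% above 0). At an unadjusted p under 0.05, 6 genes were lower and 1 higher with daidzein against control, where the shares over all genes were 4.5% and 4.04%. The same count was 1 lower and 0 higher for genistein against control (6.05% and 5.54% over all genes), and 1 in each direction between the isoflavones (4.82% lower and 5.05% higher). The 3 comparisons share arrays, so they are not independent of one another.

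**Figure D1:**
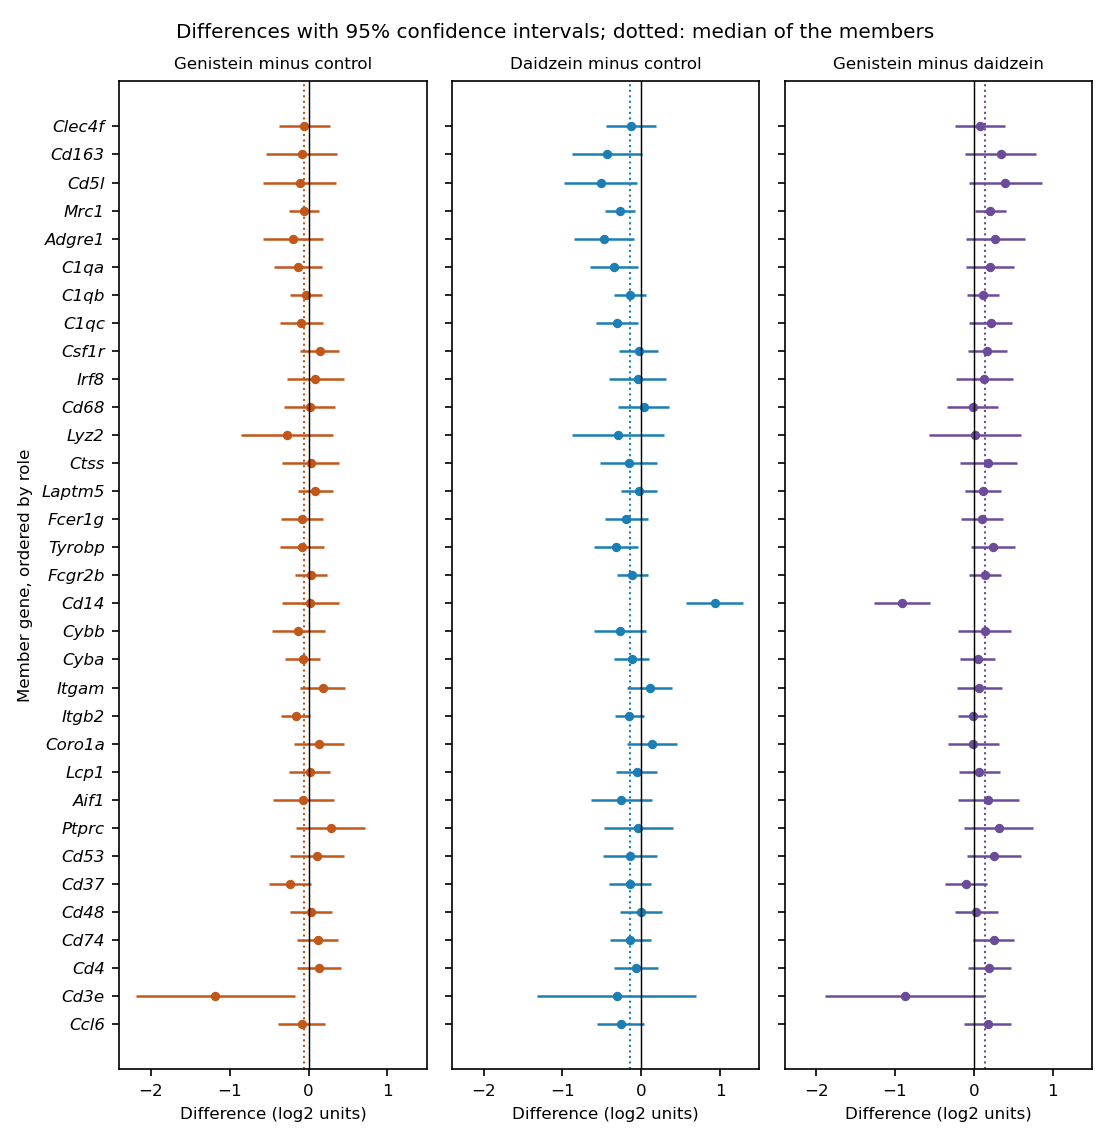
Log2 differences of the 33 genes (points) with 95% confidence intervals (lines) from the limma model, ordered by role, for genistein minus control, daidzein minus control and genistein minus daidzein; dotted lines mark the median of the 33. Most points of the daidzein panel lie a little left of 0, and Cd14 stands apart at 0.93 there and at -0.91 between the isoflavones.

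Of 9 genes grouped as Kupffer cell identity and scavenger receptors, 5 were measured. All 5 had values below control with daidzein (median -0.43), and 0 passed the test. They ran from -0.51 in Cd5l to -0.13 in Clec4f, the gene of the 5 most restricted to Kupffer cells. Mrc1, the mannose receptor that clears glycoproteins, read 3.67, 3.20, 3.46, 3.62 and 3.48 in control 1 to 5, 3.30, 3.20, 3.01, 3.26 and 3.31 in daidzein 1 to 5 and 3.40, 3.38, 3.44, 3.46 and 3.45 in genistein 1 to 5. The genistein arrays lay within 3.38 to 3.46, above every daidzein array, while control 2 lay among the daidzein arrays. The daidzein value differed from control by -0.27 (SE 0.089, limma adjusted p = 0.443) and genistein differed from daidzein by 0.21 (SE 0.089, limma adjusted p = 0.474); the share of all genes whose genistein arrays all lay above the daidzein arrays was 1.05%. Adgre1, the adhesion receptor used to recognise macrophages, read 0.66, 0.20, 0.57, 0.62 and -0.22 in control 1 to 5, 0.06, -0.41, -0.16, -0.06 and 0.02 in daidzein 1 to 5 and 0.29, -0.02, 0.19, -0.19 and 0.57 in genistein 1 to 5. Control 5 lay among the daidzein arrays and the other controls above them all, and daidzein minus control was -0.47 (SE 0.18, limma adjusted p = 0.503). In daidzein 2 the Adgre1 level was below the dim limit, though its mean over all arrays was above it.

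Cd5l, a secreted scavenger receptor protein of tissue macrophages also called AIM, read 3.39, 4.23, 4.32, 4.08 and 4.37 in control 1 to 5, 3.99, 3.28, 3.32, 3.66 and 3.58 in daidzein 1 to 5 and 4.38, 3.63, 3.83, 3.58 and 4.41 in genistein 1 to 5. Control 1 was far below the other controls, so the groups overlapped, with a daidzein minus control difference of -0.51 (SE 0.22, limma adjusted p = 0.570) and a genistein minus daidzein difference of 0.40 (SE 0.22, limma adjusted p = 0.624). Another probe set of Cd5l was too dim to be tested. Cd163, the receptor that takes up haemoglobin bound to haptoglobin, read 0.64, 0.88, 0.83, 0.93 and 0.68 in control 1 to 5, 0.32, -0.07, 0.64, 0.78 and 0.12 in daidzein 1 to 5 and 0.47, 0.69, 1.02, 0.04 and 1.30 in genistein 1 to 5. Its controls were close together and both isoflavone groups were spread, with daidzein 1, 2 and 5 below every control and daidzein 3 and 4 within their range, and the difference was -0.43 (SE 0.21, limma adjusted p = 0.618) for daidzein against control. Clec4f, the galactose-binding lectin that is found on Kupffer cells and hardly elsewhere, read 4.84, 4.66, 4.53, 4.86 and 4.57 in control 1 to 5, 4.70, 4.31, 4.76, 4.43 and 4.61 in daidzein 1 to 5 and 5.15, 4.25, 4.78, 4.38 and 4.65 in genistein 1 to 5. All 3 groups overlapped widely, with differences from control of -0.13 (SE 0.15, limma adjusted p = 0.864) for daidzein and -0.053 (SE 0.15, limma adjusted p = 0.946) for genistein. The 95% interval of the daidzein difference of Clec4f, -0.45 to 0.19, covers both no difference and one as large as that of Mrc1.

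The 3 chains of C1q, which opens the classical complement pathway and binds dying cells, also had values below control with daidzein. Their genes lie side by side in the order C1qb, C1qc and C1qa among the protein-coding genes of the RefSeq table (GRCr8). C1qa read 4.32, 4.25, 4.55, 4.51 and 4.33 in control 1 to 5, 4.47, 3.68, 4.19, 3.88 and 4.03 in daidzein 1 to 5 and 4.65, 4.08, 4.15, 4.09 and 4.31 in genistein 1 to 5. C1qb read 4.07, 4.19, 4.04, 4.35 and 4.06 in control 1 to 5, 4.18, 3.86, 4.00, 3.97 and 3.99 in daidzein 1 to 5 and 4.34, 3.87, 4.07, 4.20 and 4.07 in genistein 1 to 5. C1qc read 3.31, 3.24, 3.21, 3.48 and 3.16 in control 1 to 5, 3.34, 2.62, 2.99, 2.91 and 3.00 in daidzein 1 to 5 and 3.46, 2.90, 3.17, 3.21 and 3.20 in genistein 1 to 5. In all 3 chains daidzein 2 to 5 lay below every control and daidzein 1 lay within the range of the controls, as did genistein 1 for C1qb and C1qc, while genistein 1 exceeded every control for C1qa. Daidzein minus control was -0.34 (SE 0.14, limma adjusted p = 0.566) for C1qa. It was -0.15 (SE 0.096, limma adjusted p = 0.718) for C1qb. It was -0.31 (SE 0.13, limma adjusted p = 0.556) for C1qc. Genistein minus control was smaller in size for each chain, at -0.14, -0.033 and -0.092, and the direct difference between the isoflavones did not pass (adjusted p from 0.666 to 0.794).

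Csf1r, the receptor for the growth factor on which macrophages depend, read 2.07, 2.13, 2.05, 2.49 and 2.18 in control 1 to 5, 2.41, 2.12, 2.12, 2.13 and 1.98 in daidzein 1 to 5 and 2.53, 2.07, 2.53, 2.26 and 2.24 in genistein 1 to 5. The groups overlapped, with daidzein at -0.030 (SE 0.11, limma adjusted p = 0.960) and genistein at 0.14 (SE 0.11, limma adjusted p = 0.725) against control. Irf8, a transcription factor of the monocyte and dendritic cell lines, differed from control by -0.046 (SE 0.17, limma adjusted p = 0.958) with daidzein and 0.088 (SE 0.17, limma adjusted p = 0.911) with genistein. The receptor that maintains macrophages therefore gave 95% intervals of -0.28 to 0.22 and -0.10 to 0.39, which exclude a change of 0.5 log2 units in either direction.

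Of 4 lysosomal proteins of phagocytes 3 had values below control with daidzein, and 0 passed the test. Cd68, a lysosomal membrane protein used as a general macrophage marker, read 2.55, 3.11, 2.78, 3.21 and 2.80 in control 1 to 5, 3.01, 2.66, 3.10, 2.97 and 2.87 in daidzein 1 to 5 and 3.24, 2.50, 3.02, 2.72 and 3.05 in genistein 1 to 5. Its 3 group means were 2.89 ± 0.27 in control, 2.92 ± 0.17 with daidzein and 2.91 ± 0.30 with genistein (SD, n = 5), and no pair differed beyond that spread. Lyz2, the lysozyme of macrophages and granulocytes, had the widest genistein group of these genes, from 3.33 in genistein 5 to 5.14 in genistein 1, and differed from control by -0.28 (SE 0.27, limma adjusted p = 0.784). Ctss, a cathepsin that trims the invariant chain, differed by -0.16 (SE 0.17, limma adjusted p = 0.849) with daidzein, and Laptm5, a lysosomal membrane protein of leukocytes, by -0.031 (SE 0.11, limma adjusted p = 0.955). A further probe set of Laptm5 gave -0.13 for daidzein and -0.12 for genistein against control, the latter opposite in sign to the 0.087 of the brighter one.

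Cd14, the lipopolysaccharide co-receptor, had higher values with daidzein than with either other diet. It read 3.32, 2.94, 2.81, 3.31 and 3.27 in control 1 to 5, 4.09, 4.13, 4.10, 3.97 and 4.01 in daidzein 1 to 5 and 2.58, 2.88, 3.46, 3.25 and 3.58 in genistein 1 to 5. All 5 daidzein arrays lay above every control and every genistein array, within a narrow band, whereas the genistein arrays spread over the whole range of the controls and beyond it on both sides. The group means were 3.13 ± 0.24 in control, 4.06 ± 0.06 with daidzein and 3.15 ± 0.41 with genistein (SD, n = 5). Daidzein was 1.91-fold above control (0.93, SE 0.17, 95% interval 0.57 to 1.29), with a limma adjusted p of 0.126, so the difference was not called. Genistein was 1.88-fold below daidzein (-0.91, 95% interval -1.27 to -0.55), with a limma adjusted p of 0.0569, just short of the threshold. Over all genes the share whose arrays did not overlap was 0.866% for daidzein above control and 1.1% for genistein below daidzein. Genistein minus control was 0.022 (SE 0.17, limma adjusted p = 0.981). The genistein against daidzein difference passed the test without genistein 4 (limma adjusted p = 0.0330) and without genistein 5 (0.0336), and the daidzein against control difference when only those 10 arrays were fitted (0.0395). Over 20 alternatives it ran from 0.0293 to 0.161 for genistein against daidzein, with 5 below 0.05, and from 0.0395 to 0.517 for daidzein against control, with 1 below it. The difference itself stayed between 0.85 and 0.99 for daidzein against control and between -1.02 and -0.77 for genistein against daidzein under those settings.

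A list of genes of the Toll-like receptor pathway, which CD14 feeds, was read as well, and 6 of its 10 genes passed the filter. With daidzein 5 of the 6 had values above control (median 0.17), with genistein all 6 (median 0.10). Over all genes 51% lay below 0 with either isoflavone, with medians of -0.0037 for daidzein and -0.0038 for genistein. None passed limma's adjusted test in any comparison, and at an unadjusted p under 0.05 3 of the 6 were higher with daidzein against control (4.04% of all genes), 0 with genistein against control (5.54%), and 2 lower with genistein than with daidzein (4.82%). Lbp, the plasma protein that carries lipopolysaccharide to CD14, was 3.81 ± 0.21 in control, 4.33 ± 0.25 with daidzein and 3.94 ± 0.24 with genistein (SD, n = 5), a daidzein minus control difference of 0.53 (limma adjusted p = 0.346). Irak1, a kinase below the receptor, differed by 0.39 with daidzein (limma adjusted p = 0.143) and by 0.15 with genistein. Its daidzein arrays all lay above the controls, as did those of 0.866% of all genes. Ly96, the MD-2 protein that holds lipopolysaccharide on TLR4, was at -0.13 with daidzein, and the adaptor Myd88 at 0.17. The NF-kappaB subunits Nfkb1 and Rela were at 0.0079 and 0.18. Against daidzein, genistein differed by -0.40 in Lbp (limma adjusted p = 0.379) and by -0.24 in Irak1 (limma adjusted p = 0.230). Over the 6 genes this direct difference had a median of -0.072, with 4 below 0 and 2 above, Ly96 at 0.15 and Nfkb1 at 0.026. Tlr2, Tlr4, Tlr7 and Irak4 were too dim to be tested, so none of the 6 genes is itself a Toll-like receptor. In whole liver RNA the values of the 6 cannot be assigned to macrophages.

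**Figure D2:**
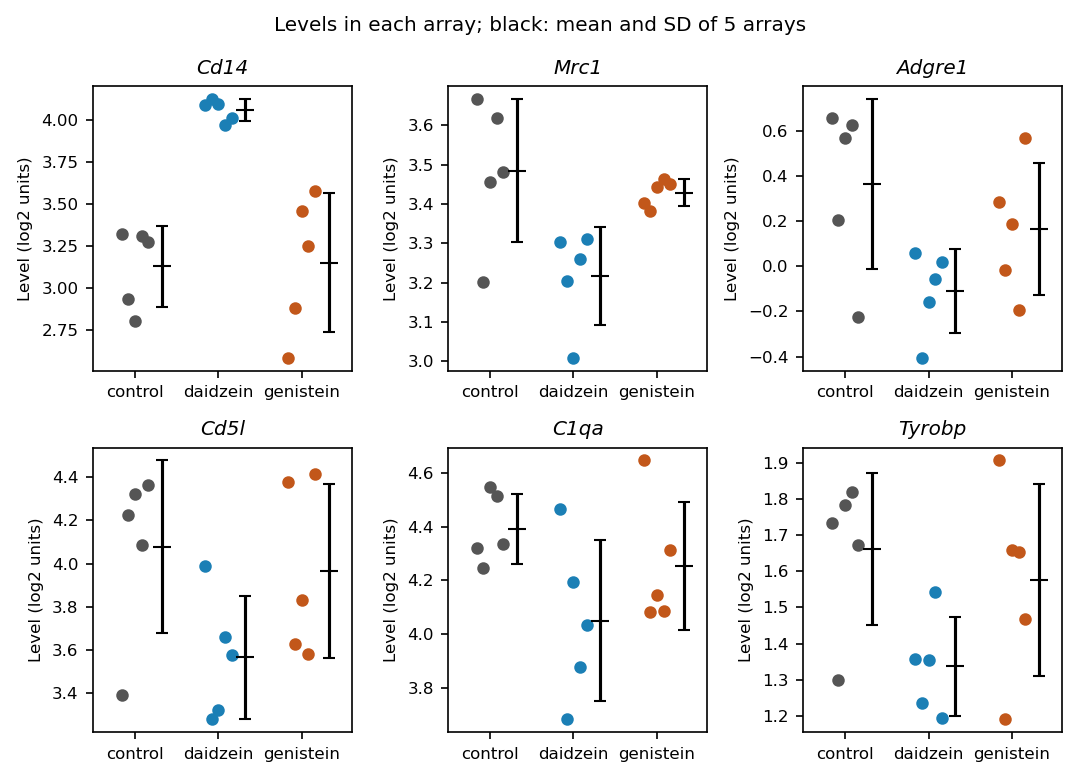
Levels (log2 units) of 6 genes in each array by diet, with the mean and SD of the 5 arrays beside the points; the vertical axes differ between panels and do not start at 0. Cd14 shows 5 daidzein arrays above all others, and the other 5 genes show daidzein means below the control means with overlapping arrays.

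The adaptors Tyrobp and Fcer1g and the antibody receptor Fcgr2b had values below control with daidzein. Tyrobp, the adaptor DAP12 that signals for Trem2 and related receptors, read 1.73, 1.30, 1.78, 1.82 and 1.67 in control 1 to 5, 1.36, 1.24, 1.35, 1.54 and 1.19 in daidzein 1 to 5 and 1.91, 1.19, 1.66, 1.65 and 1.47 in genistein 1 to 5. Control 2 lay among the daidzein arrays and the other 4 controls above them all, with a daidzein minus control difference of -0.32 (SE 0.13, limma adjusted p = 0.548). Fcer1g, the adaptor shared by several Fc receptors, was at -0.19 (SE 0.13, limma adjusted p = 0.720) with daidzein. Fcgr2b, the inhibitory Fc receptor of which much of the liver's supply is endothelial, was at -0.11 (SE 0.093, limma adjusted p = 0.787). Of 9 further Fc receptor and ITAM signalling genes, 5 passed the filter and 0 the test (median -0.090 for daidzein and 0.086 for genistein against control). Among these, Fcgr3a was at -0.19 and the kinase Lyn at 0.13 with daidzein, and Lyn at 0.18 with genistein.

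The membrane part of the phagocyte oxidase, which makes superoxide, is formed by Cybb and Cyba. Cybb was at -0.27 (SE 0.16, limma adjusted p = 0.690) with daidzein and -0.13 with genistein against control, and Cyba at -0.12 (SE 0.10, limma adjusted p = 0.792) and -0.074. Of its cytosolic subunits outside the set, Ncf4 was at 0.33 (limma adjusted p = 0.589), Ncf1 at -0.11 and Rac2 at -0.064 with daidzein (median of the 3, -0.064), so 4 of the 5 measured subunits had values below control and Ncf4 above it. With genistein all 5 had values below control, Ncf4 at -0.037, Ncf1 at -0.14 and Rac2 at -0.044 (median of the 3, -0.044). None of the 5 passed limma's adjusted test in either comparison.

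Integrins and cytoskeletal genes of leukocytes split in direction. Itgb2, the common beta chain of the leukocyte integrins, read 2.26, 2.40, 2.13, 2.17 and 2.12 in control 1 to 5, 2.16, 1.90, 2.10, 1.99 and 2.18 in daidzein 1 to 5 and 1.91, 2.05, 2.10, 2.22 and 1.97 in genistein 1 to 5. It had the smallest spread of the 33 genes, and its groups overlapped at differences of -0.16 (SE 0.085, limma adjusted p = 0.513) for genistein and -0.15 (SE 0.085, limma adjusted p = 0.673) for daidzein against control. Itgam, the alpha chain that pairs with it on monocytes, granulocytes and some macrophages, read 0.76, 0.44, 0.43, 0.16 and 0.43 in control 1 to 5, 0.74, 0.64, 0.13, 0.50 and 0.75 in daidzein 1 to 5 and 0.42, 0.72, 0.52, 0.86 and 0.59 in genistein 1 to 5. Its differences were in the other direction, 0.18 (SE 0.13, limma adjusted p = 0.695) for genistein and 0.11 (SE 0.13, limma adjusted p = 0.874) for daidzein, with overlapping arrays. Coro1a, an actin regulator of leukocytes, was at 0.14 with daidzein and 0.13 with genistein, and Lcp1, an actin-bundling protein, at -0.058 and 0.012. Aif1, the calcium-binding protein Iba1 of macrophages, was at -0.25 and -0.066 on its brighter probe set. A further Aif1 probe set gave -0.022 and -0.0053.

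Ptprc, the CD45 phosphatase on all nucleated blood cells, read 0.17, -0.63, -0.04, 0.28 and -0.22 in control 1 to 5, -0.09, -0.55, -0.29, -0.32 and 0.64 in daidzein 1 to 5 and 0.36, 0.01, 0.34, 0.04 and 0.21 in genistein 1 to 5. These levels lay around the dim limit and the groups overlapped, with differences from control of -0.035 (SE 0.21, limma adjusted p = 0.974) for daidzein and 0.28 (SE 0.21, limma adjusted p = 0.682) for genistein; a further probe set of it was too dim to be tested. Cd37, a tetraspanin mainly of B cells, read -0.06, -0.02, 0.07, 0.15 and 0.24 in control 1 to 5, -0.24, -0.05, 0.27, -0.16 and -0.12 in daidzein 1 to 5 and 0.15, -0.53, -0.17, 0.01 and -0.23 in genistein 1 to 5. Its genistein value was -0.23 (SE 0.13, limma adjusted p = 0.537) against control, with genistein 1 at the upper end of the controls and genistein 2 well below them. Cd53, another leukocyte tetraspanin, was at -0.14 with daidzein and 0.11 with genistein, and Cd48, an adhesion protein of lymphocytes and macrophages, at -0.0061 and 0.027. The general leukocyte marker therefore differed from control by less than the spread between arrays in both diets.

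Cd74, the invariant chain of MHC class II, read 3.84, 3.98, 3.82, 4.00 and 3.84 in control 1 to 5, 3.97, 3.99, 3.53, 3.57 and 3.74 in daidzein 1 to 5 and 4.28, 3.83, 3.88, 4.25 and 3.82 in genistein 1 to 5. Genistein 1 and 4 were the highest arrays and daidzein 3 and 4 the lowest, and the difference between the isoflavones was 0.25 (SE 0.12, limma adjusted p = 0.547), with -0.14 for daidzein and 0.11 for genistein against control. The 7 genes of the MHC class II list gave medians of -0.085 and 0.052 in the same comparisons, with 0 called; RT1-DMb, a peptide loading subunit, was at -0.13 with daidzein. Cd4, carried by helper T cells and, in rats, by macrophages too, was at -0.067 and 0.13. Cd3e, a chain of the T cell receptor complex, read 1.36, -0.48, 0.87, 0.18 and 0.02 in control 1 to 5, -0.68, 0.56, 1.82, -0.98 and -0.30 in daidzein 1 to 5 and -0.58, -0.89, -1.23, -0.13 and -1.14 in genistein 1 to 5. It varied more than any other of the 33, and genistein differed from control by -1.19 (SE 0.47, limma adjusted p = 0.368). The levels of Cd3e lay around the dim limit, with genistein 1, 2, 3 and 5, daidzein 1 and 4 and control 2 below it. Its further probe set gave 0.34 (SE 0.20, limma adjusted p = 0.588) for the same comparison, so the 2 probe sets of Cd3e went in opposite directions. The partner chain Cd3g, on the list of T and NK cell genes, was at 0.44 with genistein, at a mean level of -0.078, near the dim limit. Ccl6, a chemokine made by macrophages and other myeloid cells, was at -0.26 (SE 0.14, limma adjusted p = 0.654) with daidzein and -0.088 with genistein.

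Genistein and daidzein were given at the same dose for the same time and form 1 pair of compounds. Of the 33 direct differences 0 passed the test, and they ran from -0.91 in Cd14 to 0.40 in Cd5l. Beside Cd14 and Mrc1, the interval of the difference included 0 for every gene. It was -0.062 to 0.86 for Cd5l, -0.042 to 0.52 for Tyrobp and -0.0057 to 0.51 for Cd74. For Clec4f it was -0.24 to 0.40 and for Cd68 -0.34 to 0.31, so differences of up to these bounds between the isoflavones cannot be told from none in these markers.

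Arrays of one diet differed from each other across the 33 genes. Relative to the control mean, the median of the 33 was 0.038, -0.32, -0.14, -0.22 and -0.16 in daidzein 1 to 5 and 0.23, -0.26, 0.0074, -0.032 and 0.041 in genistein 1 to 5, while controls ran from -0.071 to 0.15. So 4 of the 5 daidzein arrays had medians below all the controls and daidzein 1 did not. In daidzein 2, 19 of the 33 genes lay below every control, where the share of all genes was 23.5%. The number was 15 in daidzein 4 (17% of all genes), 11 in daidzein 3 (16.6%), 9 in daidzein 5 (21.2%) and 3 in daidzein 1 (17.8%). The genistein group held arrays of both kinds. In genistein 1, 16 genes lay above every control (17.9% of all genes), and in genistein 2, 15 lay below every control (18.2%). The genistein group, with a median near 0, thus held arrays on both sides of the controls. Without daidzein 2 the daidzein median was -0.11, with 24 of 33 genes below 0. Without genistein 2 the number of genes with lower values under genistein than daidzein was 3, in place of 6. Without control 4, the control with the highest median, the daidzein median was -0.11, with 24 below 0. The Gapdh 3'/5' measure of RNA integrity, as a log2 difference within an array, ran from 0.0035 to 0.080 in control, -0.057 to 0.032 with daidzein and -0.057 to 0.099 with genistein. The same measure for beta-actin was larger, at 0.91 to 1.18 in control, 0.88 to 1.15 with daidzein and 0.88 to 1.15 with genistein. The part of RNA integrity in these values was not tested.

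**Figure D3:**
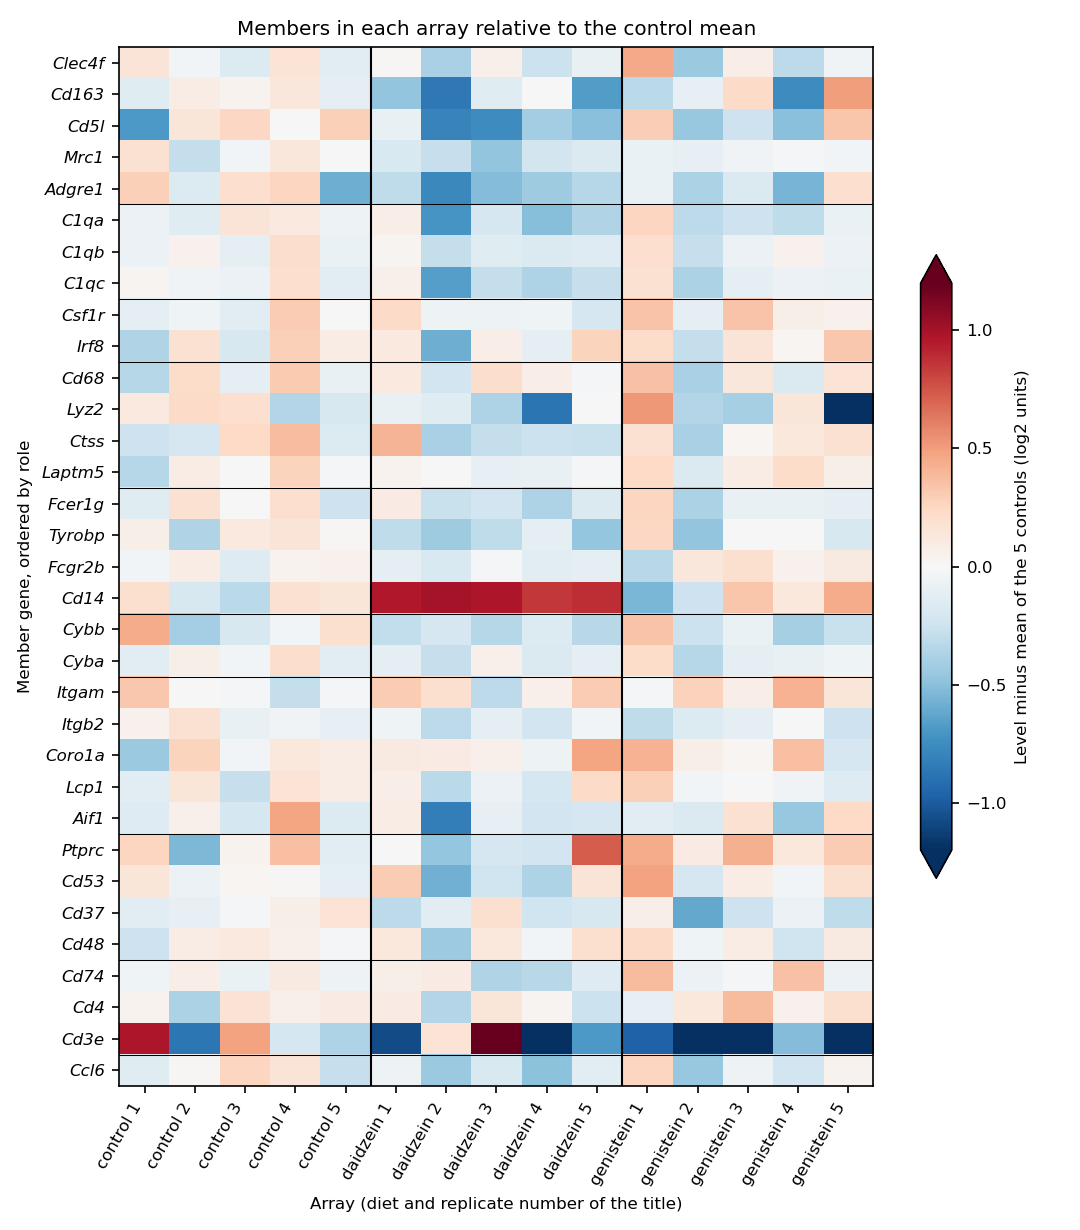
Each of the 33 genes (rows, grouped by role) in each of the 15 arrays (columns) as its level minus the mean of the 5 controls, in log2 units; colours saturate at the ends of the scale. Daidzein 2 and genistein 2 are mostly blue, with 27 and 28 genes below the control mean, genistein 1 is mostly red, with 23 above it, and the Cd14 row is red in all 5 daidzein arrays.

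Markers of the other cells in liver were read beside these genes, 0 of them called in any comparison. Of 10 stellate cell and fibroblast markers 9 passed the filter, and 8 of the 9 had values below control with daidzein (median -0.25; with genistein 0.022), where 51% of all genes lay below 0. At an unadjusted limma p under 0.05, 4 of the 9 were lower, against 4.5% of all genes. Their summed level, the log2 of the sum over the list, was 6.01 to 6.13 in control, 5.70 to 5.96 with daidzein and 6.02 to 6.14 with genistein, so the daidzein arrays lay below all others. Dcn was at -0.76 and Reln at -0.34 with daidzein, Col3a1 at -0.30 and Col1a1 at -0.022. Of the 10, 1 was too dim to be tested and the other 9 had means above the dim limit. The summed level of the 33 genes was 8.15 to 8.35 in control, 7.95 to 8.27 with daidzein and 7.94 to 8.45 with genistein. The part of these markers in the daidzein values of the macrophage genes was not tested. The 8 sinusoidal endothelial markers, of which Fcgr2b also stands among the 33 genes, had medians of 0.011 with daidzein and 0.025 with genistein, and summed levels of 5.92 to 6.18 in control, 5.89 to 6.00 and 5.84 to 6.24. The 9 hepatocyte markers had summed levels of 11.54 to 11.57, 11.54 to 11.57 and 11.52 to 11.57. Alb sat at 9.29 in all 15 arrays, a value the quantile normalization fixes at the top of the scale. The narrow range of these markers therefore cannot be set against the wider ranges of the other lists.

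Markers of other blood cells and of bile duct cells rested on 2 to 7 measured genes a list. The 7 T and NK cell genes that passed the filter, of 12, had medians of -0.16 with daidzein and 0.021 with genistein, and the 2 B and plasma cell genes -0.099 and -0.10. Of the latter Jchain, which joins antibody chains, was at -0.33 with daidzein (limma adjusted p = 0.598). The 3 neutrophil genes had medians of 0.18 and -0.17, with S100a8 at 0.27 with daidzein and -0.17 with genistein. The 3 erythroid genes, which track retained blood, had medians of 0.072 and -0.11, and the 2 cholangiocyte genes 0.0096 and -0.013.

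Macrophage regulators outside the set did not pass either. Of 13 survival and identity factors 10 passed the filter, with medians of -0.016 for daidzein and 0.10 for genistein against control. Csf1, the ligand of Csf1r, was at 0.19 and 0.15, and Csf2rb, a cytokine receptor chain, at 0.28 and 0.30. Maf, a transcription factor of macrophages that hepatocytes also express, was at 0.69 with genistein against control (limma adjusted p = 0.280) and -0.0031 with daidzein, and Nr1h3, the sterol receptor LXR alpha, at -0.25 with genistein. The 8 cytokine and chemokine genes that passed the filter, of 14, had medians of 0.019 and 0.064. Tnf was at -0.46 with daidzein and Il18 at -0.30, and with genistein they were at -0.35 and -0.27. Ccl3 was at 0.37 with genistein (limma adjusted p = 0.279) and 0.14 with daidzein, and Cxcl10 at 0.39 and 0.19. Ccl3 and Tnf lay near the dim limit, at mean levels of -0.023 and 0.075. Among 11 lysosomal genes outside the set, most of them used by all cells, the medians were -0.051 and 0.070. Ctsl, a cathepsin, was at 0.33 with genistein against control (limma adjusted p = 0.159) and at 0.37 against daidzein (limma adjusted p = 0.121), and Ctsd at 0.28 against control.

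**Figure D4:**
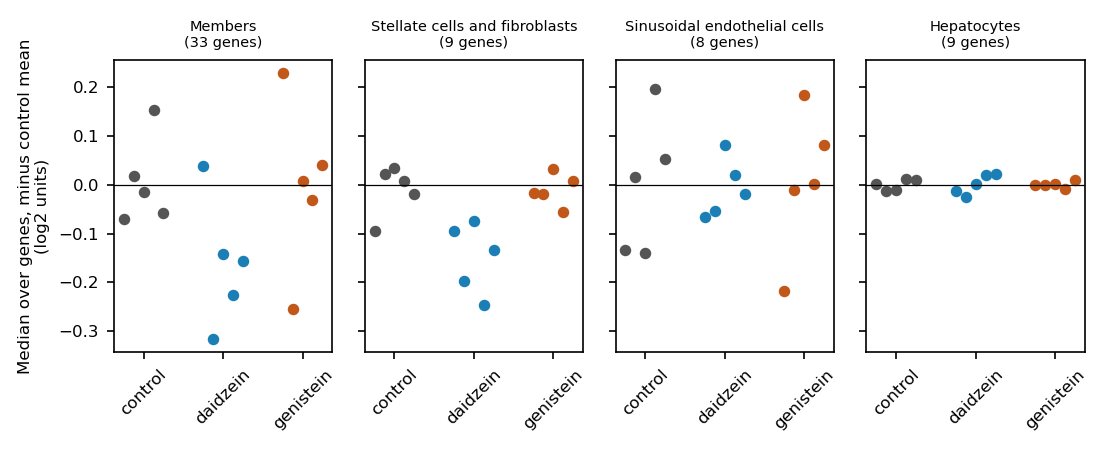
Median over genes in each array, minus the control mean of each gene (log2 units), for the 33 genes and for markers of stellate cells and fibroblasts, sinusoidal endothelial cells and hepatocytes, with a point per array. The daidzein points of the 33 genes reach down to -0.32 and those of the stellate markers to -0.25. Hepatocyte points stay within -0.026 and 0.021, but quantile normalization holds the brightest genes, such as Alb, nearly fixed. The narrow hepatocyte range is therefore no measure to set the other panels against.

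Many, but not all, promoters of the genes hold a short sequence feature. The choice of genes did not use promoter sequence, though the letters searched are those of PU.1, a factor of the macrophage programme. RefSeq (GRCr8) gave promoters for 28 of the 39 genes, and the 250 bases before each start were searched on both strands for GAGGAA, the core letters bound by PU.1. The 28 include Vsig4, Timd4 and Marco, whose levels were not analysed. The letters occurred in 18 of the 28, Marco among them, or 64.3%, against 23.3% of all 33469 promoters of the same length in the table. Cd14, whose daidzein arrays lay above the rest without a call, holds the letters at 2 places, as does Mrc1, whose daidzein values were below control, and Cd5l holds them once. These 3 are shown because their values differ in direction while the letters are shared; capitals mark GAGGAA, or TTCCTC where it lies on the other strand.
Cd14, chr18:28611159-28611408, minus strand: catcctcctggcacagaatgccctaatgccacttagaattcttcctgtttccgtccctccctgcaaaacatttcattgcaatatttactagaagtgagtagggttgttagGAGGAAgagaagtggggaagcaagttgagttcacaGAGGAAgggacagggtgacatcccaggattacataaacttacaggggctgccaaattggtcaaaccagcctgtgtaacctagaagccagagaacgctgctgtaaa
Mrc1, chr17:82157475-82157724, plus strand: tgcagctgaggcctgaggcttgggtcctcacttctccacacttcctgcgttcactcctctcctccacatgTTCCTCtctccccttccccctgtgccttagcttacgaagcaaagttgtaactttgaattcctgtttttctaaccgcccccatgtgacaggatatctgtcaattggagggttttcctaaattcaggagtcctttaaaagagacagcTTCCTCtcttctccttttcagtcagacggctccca
Cd5l, chr2:175088665-175088914, plus strand: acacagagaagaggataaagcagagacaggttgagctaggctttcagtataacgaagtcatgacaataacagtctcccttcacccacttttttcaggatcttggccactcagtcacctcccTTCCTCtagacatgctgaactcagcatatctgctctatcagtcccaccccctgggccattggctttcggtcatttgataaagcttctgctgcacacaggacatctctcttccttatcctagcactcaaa
The promoters of Clec4f, C1qa and Cd163 do not hold these letters in the window searched. A match of 6 letters is a description of the sequence and does not show binding.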

How the data were processed

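RNA of rat liver was labelled in 1 cycle for Affymetrix arrays, per the labels' protocols. The deposited values are standardized scores of log signal with a location and scale of each array's own; the summary method and the standardization are not given in the sources used here. Within each array, often repeated values gave 390 of 390 gaps that were whole within 0.001 after exponentiation, so the log base and scale were recovered and a common factor of 2.60 log2 units per deposited unit (2.54 to 2.79 by array) turned the scores into log2 levels.

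Levels were quantile normalized, the 57 control probe sets left out and the 40% of probe sets with the lowest mean dropped. A linear model of diet was fitted over all 15 arrays with limma 3.58.1 in R 4.3.3, and p-values were adjusted by Benjamini-Hochberg over 18625 probe sets. No tested value was missing or imputed. The fit was run on simulated data with 100 probe sets moved by 1 log2 unit, of which 76 to 78 were recovered in a comparison. Moves below 1 log2 unit were not simulated. Of the 31099 probe sets, 20832 had 1 gene symbol, 436 several and 9831 none in a platform annotation that can be old; 20764 of the first matched the RefSeq gene table. Of the 33 genes 7 had more than 1 probe set.

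The members and the lists of other genes and markers (7 and 8 lists) were chosen with earlier results of these data known. Every array is given for 11 genes fixed by name (Clec4f, Adgre1, Cd163, Cd68, Csf1r, Ptprc, the 3 C1q chains, Cd74 and Cd3e) and for the 5 of lowest unadjusted p in each comparison; the other genes are given by their differences, and from each other list up to 2 genes of lowest p in a comparison are named, with others chosen after their values were seen. The limma p-values set a difference between diets against the spread between these arrays. Title numbers were not used as pairs in the main fit. Of 15 same-numbered pairs, 1 had a residual correlation over 0.1, and the description numbers were not checked this way. Other normalizations, filters, weights, blocks and left-out arrays were tried.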

Additional observations from a re-analysis of the deposited data

Results flagged for a closer look

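In 6 of 99 groups of 5 arrays (33 genes in 3 diets), 1 array lay further from its nearest neighbour than 0.71 of the group's whole range, and chance alone gives about 1 in 20. Ctss, the cathepsin of antigen presentation, was 4.42 in daidzein 1 against 3.63 to 3.76 in the other daidzein arrays. In genistein 2 Ctss was 3.62, below the 4.04 to 4.20 of the other genistein arrays. Cd5l was 3.39 in control 1, where the other controls held 4.08 to 4.37. Control 2 was low in Tyrobp, at 1.30 against 1.67 to 1.82, and in Cd4, at -0.13 against 0.29 to 0.43. Fcgr2b was 4.01 in genistein 1, below the 4.39 to 4.53 of the other genistein arrays. Genistein 1 was high and genistein 2 low across most of the 33 genes, and daidzein 1 was the daidzein array with the highest median.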

How the results depend on the processing

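The median difference of the 33 genes moved by less than 1 SD of the array medians (0.135) under every alternative run. That limit is wide, about the size of the daidzein median itself (-0.14) and larger than the genistein median (-0.053) against control. Leaving out arrays one at a time gave -0.17 to -0.11 for daidzein against control, -0.060 to 0.019 for genistein against control and 0.10 to 0.18 for genistein against daidzein. Genes below 0 numbered 24 to 29, 14 to 23 and 3 to 9 in the same order; counts below 0 were added as a result after seeing the data. Of the 33 genes, 0 were called for genistein against control under any alternative and 0 to 1 for genistein against daidzein without 1 array. The 1 gene called there was Cd14. It was also called for genistein against daidzein with 16 added to the intensities (log2 difference -0.88, count 1), with the 60th percentile filter (-0.91, count 1) and with array weights (-0.92, count 1). For daidzein against control it was called with only the 10 arrays compared (0.93, count 1). Under the 60th percentile filter 28 of the 33 genes were left.

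Counts over all probe sets moved more. For genistein against control, with 60 called, median centring gave 34, no filter 14, the 60th percentile filter 124, the 10 arrays compared 0, array weights 140, leaving out control 1 and daidzein 5 together 4, and leaving out 1 array 10 to 203, the highest without genistein 4. For daidzein against control, with 3 called, the stricter filter and array weights gave 7 each, leaving out both arrays 1, and leaving out 1 array 2 to 8. For genistein against daidzein, with 21 called, median centring gave 9, 16 added 35, no filter 3, the stricter filter 67, the 10 arrays compared 2, array weights 74, leaving out both arrays 4, and leaving out 1 array 3 to 136. With the title number as a replicate block, 17 probe sets were called for genistein against control and 2 for genistein against daidzein. Under this setting 0 of the 33 genes were called in each comparison. Same-numbered arrays had residual correlations of -0.16 to 0.11 over probe sets, which cannot show what else they share. The cause of these moves was not tested. Of the 99 differences of single genes, 34 took the opposite sign under at least 1 alternative, the largest of them 0.31 in size, and 0 of 2064 values moved by 1 SD or more. With 5 arrays a diet, differences under about 0.30 in the median gene lie within the 95% interval.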
